A study of Homo sapiens with 6 samples.

Results

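C1S and C1R, which encode the proteases of the first complement component, had lower signals in the TβRIII-KD cultures of SUM159 cells than in the control cultures, C1S 4.54-fold and C1R 3.31-fold. Their inhibitor SERPING1 was 2.35-fold lower, and the alternative pathway protease CFB 1.88-fold lower. The membrane regulators CD55 and CD59 had log2 fold changes near 0. These genes belong to a set of 9 complement components and regulators (C1R, C1S, C1RL, SERPING1, CFB, CFI, C3, CD55 and CD59), of 18276 genes measured and of 51 complement genes measured. They were selected from known complement genes with their TβRIII-KD and control values on these arrays already seen, so those values are given below as a description, without a test.

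SUM159, a human breast cancer line long kept in culture, served in the study as a model of the mesenchymal stem-like subtype of triple negative disease. RNA was taken on day 6 from matrigel cultures of 3 control samples and 3 samples with stable knockdown of TβRIII, the receptor encoded by TGFBR3, and each sample was hybridized to 1 Affymetrix Human Gene array. The knockdown was made by lentiviral shRNA and puromycin selection, and the study states that after a first comparison of vectors 1 shRNA was used throughout. Each group is a single cell population, so knockdown of TβRIII and any other difference between the populations cannot be told apart. No source used here says that the arrays of a group came from separate cultures, so a p-value here covers the spread among these arrays alone, and that spread may be technical. In bulk RNA, fewer cells that express a gene and less of its RNA per cell cannot be told apart.

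All values are log2 signals made by the authors with RMA, which corrects background, equalizes the arrays and gives 1 value to each transcript cluster, the probes that together read a gene. A fold change is the difference between the group means on that scale, and a difference of 1 is a doubling of signal. A signal also depends on the probes, so levels are compared mainly between arrays. Where a level is set against the median transcript cluster, or signals of several markers are summed, the comparison between genes is rough. The array medians lay between 7.67 and 7.71. TGFBR3 itself read 10.81, 10.89 and 10.56 on controls 1 to 3 and 9.72, 10.01 and 10.16 on TβRIII-KD 1 to 3 (log2 fold change -0.79, SE 0.13, adjusted p = 0.0145 from limma). No TGFBR3 signal overlapped between the groups (p = 0.1 in a two-sided exact permutation test, which cannot go lower with 3 arrays in each group). The call on TGFBR3 was lost without control 1 (adjusted p = 0.0770), control 2 (0.0554) or TβRIII-KD 2 (0.0625).

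Most markers, though not all luminal ones, matched the cell type named by the study. All 6 mesenchymal markers, among them VIM and CD44, had control signals above the median transcript cluster, and 0 of the 6 passed the cutoff defined below. Of 6 luminal markers, 4 lay below that median in controls, ESR1, PGR, EPCAM and CDH1, while KRT18 (control mean 11.07) and ERBB2 (8.84) lay above it. The summed linear signal of all 6 was 2629 to 3251 in controls and 2142 to 2499 in TβRIII-KD, so it was lower on each TβRIII-KD array, and its part in the complement values was not tested. That sum rests mainly on KRT18 (log2 fold change -0.38), beside -0.15 for EPCAM and slightly positive values for ESR1 (0.04), PGR (0.02), ERBB2 (0.08) and CDH1 (0.08). All 8 hepatocyte markers lay below it, ALB included, with a summed linear signal of 579 to 622 in controls and 569 to 630 in TβRIII-KD. Of 8 monocyte and leukocyte markers 7 lay below it, PTPRC included, and CD68 was the exception. Their summed linear signal was 1435 to 1844 in controls and 1269 to 1595 in TβRIII-KD. CD68 (log2 fold change -0.29) carried most of that sum, and the other markers lay between -0.06 (CD14) and 0.21 (MRC1). Of the luminal, hepatocyte, monocyte and leukocyte markers 0 passed the cutoff.

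Complement is a cascade of plasma proteases that marks targets with fragments of C3 and can end in a membrane pore. In the classical pathway C1q, the recognition part of the C1 complex, works with the proteases C1r and C1s, and C1s cleaves C4 and C2. The alternative pathway amplifies C3 cleavage through factor B, and regulators in plasma and on cell membranes hold the cascade in check. The liver makes most of the plasma pool, but epithelial and mesenchymal cells also transcribe many of these genes, several of which belong to the acute-phase response.

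C1S, which encodes the protease that acts on C4 and C2, read 10.14, 10.23 and 10.38 on controls 1 to 3 and 8.17, 7.65 and 8.39 on TβRIII-KD 1 to 3. The groups were 1.75 apart at their nearest arrays, while the arrays spread over 0.24 in controls and 0.74 in TβRIII-KD. The log2 fold change was -2.18 (SE 0.17, n = 3 arrays per group), which placed C1S 14th from the lowest of all genes. C1R, whose product activates C1s, read 10.89, 10.85 and 10.99 in controls and 9.28, 8.83 and 9.44 in TβRIII-KD. Here too the gap of 1.41 between the groups exceeded the spread within either group. Its log2 fold change was -1.73 (SE 0.14), the 25th from the lowest.

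C1RL, a paralogue of C1R that encodes a C1r-like protease, read 10.02, 10.08 and 10.06 in controls and 9.34, 9.22 and 9.50 in TβRIII-KD. Controls spread over only 0.05, and the nearest TβRIII-KD array lay 0.53 below them. Its log2 fold change of -0.70 (SE 0.09) was smaller in size than those of C1R and C1S, its neighbours on chromosome 12, and was also the median of the 9 genes. The median over all transcript clusters was 0.01.

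SERPING1 encodes C1 inhibitor, a serpin that inactivates C1r and C1s. It read 8.24, 8.04 and 8.43 in controls and 6.85, 6.99 and 7.16 in TβRIII-KD, with no overlap. The log2 fold change was -1.24 (SE 0.12). The genes for the C1 proteases and for their inhibitor were therefore all lower on every TβRIII-KD array.

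**Figure D1:**
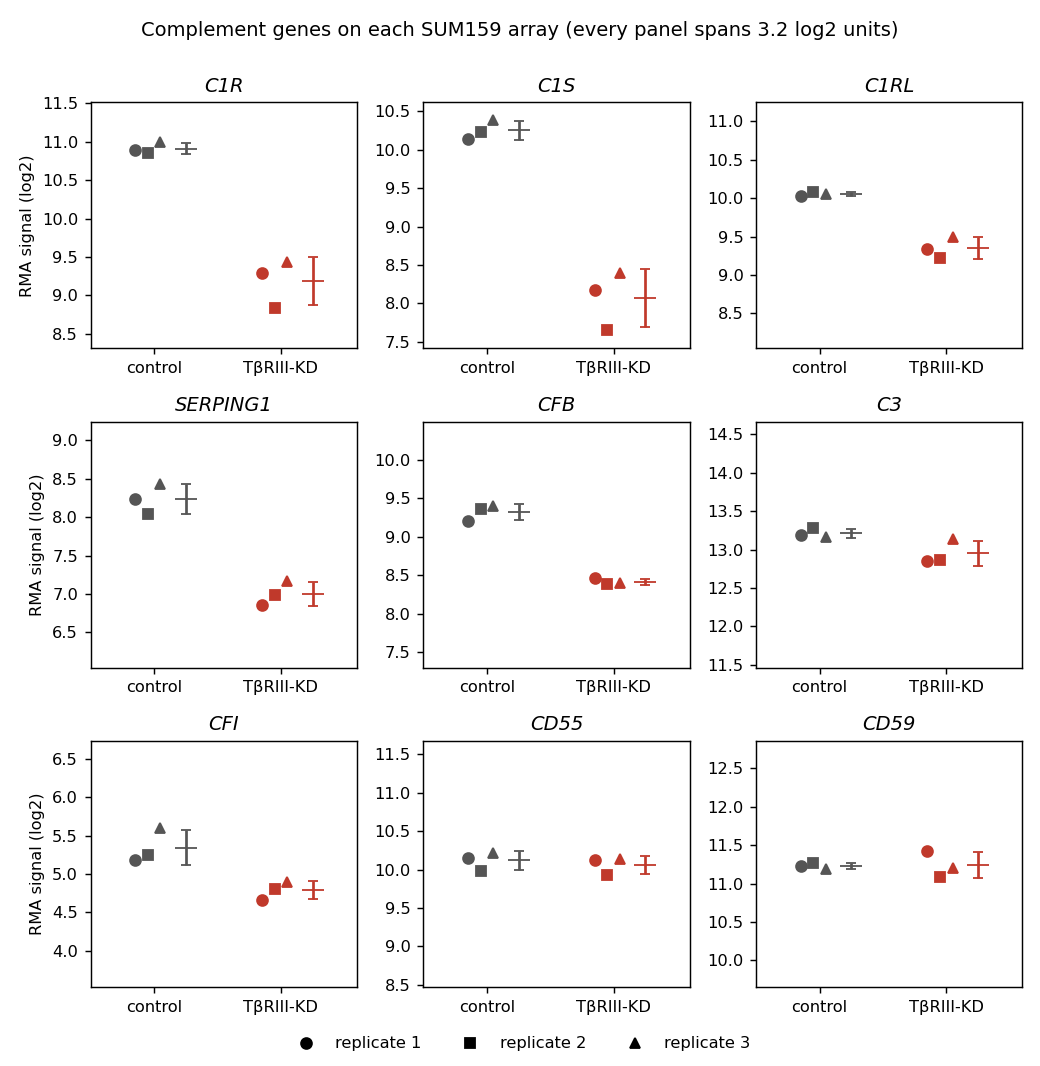
RMA signal (log2) of the 9 complement genes by array, with grey for controls, red for TβRIII-KD, a symbol for each replicate number and the mean ± SD of 3 arrays at the right of each group. The groups lie apart for C1R, C1S, C1RL, SERPING1, CFB and CFI, are 0.02 apart for C3 and overlap for CD55 and CD59.

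CFB, which encodes factor B, the protease of the alternative pathway convertase, read 9.20, 9.36 and 9.41 in controls and 8.46, 8.39 and 8.40 in TβRIII-KD. The 3 TβRIII-KD arrays lay within 0.07 of each other. The log2 fold change was -0.91 (SE 0.08), and the other transcript clusters of CFB, which lies in the major histocompatibility complex, had values of -0.90 and -0.92. Whether these clusters share probes was not analysed here, so they are not taken as separate measurements. C3, the central component that all pathways cleave, read 13.19, 13.28 and 13.17 in controls and 12.85, 12.86 and 13.14 in TβRIII-KD. Only 0.02 separated TβRIII-KD 3 from the nearest control, and the log2 fold change was -0.26 (SE 0.10).

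CFI encodes factor I, which cleaves C3b and C4b with the help of cofactors. It read 5.18, 5.24 and 5.60 in controls and 4.66, 4.81 and 4.89 in TβRIII-KD. The groups were 0.29 apart, less than the 0.42 that controls spanned, and the log2 fold change was -0.55 (SE 0.12). These signals lie below the median transcript cluster, and signal over background was not analysed here.

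CD55, which encodes decay-accelerating factor, read 10.15, 9.99 and 10.22 in controls and 10.13, 9.92 and 10.13 in TβRIII-KD. The groups overlapped, and the log2 fold change was -0.06 (95% confidence interval -0.27 to 0.15). CD59, which encodes the inhibitor of the membrane attack complex, read 11.24, 11.27 and 11.19 in controls and 11.42, 11.09 and 11.21 in TβRIII-KD. All 3 controls lay inside the range of the TβRIII-KD arrays, and the log2 fold change was 0.01 (95% confidence interval -0.21 to 0.22). The sign of both values turned when 1 array was left out, for CD55 to 0.01 without TβRIII-KD 2, and for CD59 to -0.01 without control 3 and -0.08 without TβRIII-KD 1.

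Of the 9 genes, 7 had all TβRIII-KD arrays below all controls, as 10.7% of all transcript clusters had. At the study's cutoff, an adjusted p under 0.05 in limma and an absolute log2 fold change over 0.5, 6 of the 9 were lower and 0 were higher, where 1.49% of all transcript clusters were lower. The genes not past it were C3, CD55 and CD59. The genes were chosen on this same contrast, so neither count is a test. CFI (-0.55) was the gene just inside the cutoff and C3 (-0.26) the next outside it. Without TβRIII-KD 3 there were 6 genes past the cutoff, and without any other array there were 5, since CFI was lost.

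The genes also varied among the arrays of a group. TβRIII-KD 3 was the highest of its group for 7 of the 9 genes and the lowest for 0. TβRIII-KD 2 was the lowest for 6, C1R, C1S, C1RL, CFB, CD55 and CD59. On TβRIII-KD 2, C1S lay 0.42 and C1R 0.35 below their group means, and on TβRIII-KD 3 they lay 0.32 and 0.26 above, so these neighbouring genes deviated together. SERPING1, C3 and CFI had TβRIII-KD 1 lowest, though C3 was nearly equal on TβRIII-KD 1 (12.85) and TβRIII-KD 2 (12.86). CFB deviated by at most 0.04 on any TβRIII-KD array. Among controls, control 3 was the highest for 6 of the 9 genes. With 3 arrays per group these orders are descriptions.

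**Figure D2:**
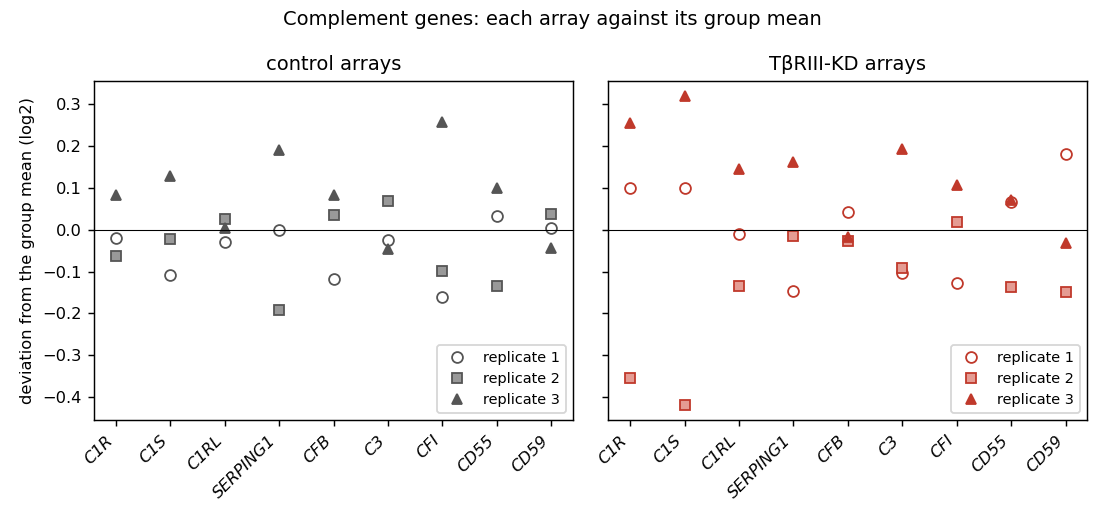
Deviation of each array from the mean of its group (log2) for the 9 complement genes, controls at the left and TβRIII-KD at the right, with a symbol for each replicate number. C1R and C1S lie 0.35 and 0.42 below the mean on TβRIII-KD 2, while no CFB point of the TβRIII-KD arrays lies more than 0.04 from 0.

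Leaving out TβRIII-KD 2 gave the fold changes nearest to 0 for C1R (-1.55) and C1S (-1.97), and leaving out TβRIII-KD 3 gave the lowest (-1.85 and -2.34). For C3 the value lay between -0.36 without TβRIII-KD 3 and -0.21 without TβRIII-KD 1. For CFI it lay between -0.63 without control 1 and -0.43 without control 3.

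By the distance between their arrays, after the control mean of each gene was subtracted, the genes most like C1S over the 6 arrays were BPIFB4 (distance 0.41, log2 fold change -2.25), SAA2 (0.53, -2.15), SAA1 (0.59, -1.98), CYP4B1 (0.61, -1.90) and MIR95 (0.62, -2.37). SAA1 and SAA2 encode serum amyloids of the acute phase. Those most like C1R were PLXDC1 (0.45, -1.79), CYP4B1 (0.47, -1.90), SERPINA1, which encodes α1-antitrypsin (0.52, -1.56), IL1R2, a decoy receptor for interleukin-1 (0.53, -1.81), and FMO2 (0.55, -1.59). C1R was 8th in the order for C1S, at a distance of 0.80, and C1S 19th in the order for C1R. The measure rests mainly on the group difference by which the complement genes were chosen.

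The further complement genes are those left after the genes above had been selected with their values seen. A lack of lower genes among them can follow from that selection. The counts below are therefore a description and cannot show whether complement otherwise stayed unchanged. Of 48 further complement genes listed, 42 had a transcript cluster with 1 symbol, and of these 0 were lower and 1 was higher at the cutoff. This is 2.38% of the list, where 2.26% of all transcript clusters passed in either direction and 0.777% were higher. The median log2 fold change of the list was 0.04, beside 0.01 over all transcript clusters. Of the 42 genes, 3 had all TβRIII-KD arrays below all controls and 3 had all above, where 10.7% and 10.0% of all transcript clusters had. An unadjusted p under 0.05 was reached by 4 of the 42 (9.52%) and by 15.2% of all transcript clusters. Control signals of 35 of the 42 genes lay below the median transcript cluster.

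The gene that rose was CR2, which encodes the complement receptor for C3d that is best known from B cells. It read 4.64, 4.98 and 5.06 in controls and 5.37, 5.45 and 5.41 in TβRIII-KD. All TβRIII-KD arrays lay above all controls, by 0.52 in the mean (SE 0.11, adjusted p = 0.0415 from limma). Both groups lay far below the median transcript cluster, and the call was lost without control 1 (adjusted p = 0.0917), control 2 (0.0821), TβRIII-KD 1 (0.0854), TβRIII-KD 2 (0.149) or TβRIII-KD 3 (0.0669).

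Both receptors for the anaphylatoxin C5a had lower means in TβRIII-KD without passing the test. C5AR1, the signalling receptor, read 8.69, 8.60 and 8.56 in controls and 7.77, 8.14 and 8.33 in TβRIII-KD (log2 fold change -0.54, SE 0.13, adjusted p = 0.0715). The arrays did not overlap, and limma's adjusted p was 0.0189 without TβRIII-KD 3, whose signal lay nearest to the controls, and 0.0347 with arrays weighted by quality. It was 0.247, 0.166 and 0.165 without controls 1, 2 and 3 in turn, 0.0895 without TβRIII-KD 1 and 0.173 without TβRIII-KD 2. For C5AR2, the other C5a receptor, the log2 fold change was -0.35 (adjusted p = 0.223, SE 0.13). The receptor for C3a, C3AR1, had one of -0.07 (SE 0.10).

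C2, which encodes the classical pathway component that C1s cleaves and lies beside CFB, had a higher mean in TβRIII-KD, with a log2 difference of 0.28 (SE 0.09, adjusted p = 0.181). CFB and C2 thus had opposite signs, but C2 did not pass the test. Its means of 5.78 in controls and 6.06 in TβRIII-KD lay below the median transcript cluster. CFHR4, listed with the fluid-phase regulators, had 0.34 (SE 0.16, adjusted p = 0.352), and CLU, which encodes the regulator clusterin, had -0.22 (SE 0.11, adjusted p = 0.377).

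By role, the 4 further genes of the classical pathway lay between -0.06 (C1QC) and 0.28 (C2) on the log2 fold change scale. The subunits of C1q, the recognition part of the C1 complex, lay at 0.01 (C1QA), 0.06 (C1QB) and -0.06 (C1QC). The 8 lectin pathway genes lay between -0.15 (FCN2) and 0.105 (FCN3), and their proteases MASP1 and MASP2, relatives of C1R and C1S, each had a value of 0.10. The 7 terminal pathway genes, which build the membrane pore, lay between -0.21 (C6) and 0.21 (C5). CFD and CFP, which encode factor D and properdin of the alternative pathway, had values of -0.09 and 0.10. Among the 9 fluid-phase regulators the lowest was CLU (-0.22), and among the 3 membrane regulators CD46, a cofactor for factor I, had -0.03. None of these genes passed the test. Of the 42 further genes, 35 had control means below the median transcript cluster, and whether a fall could show there was not tested. The 7 at or above the median had -0.54 (C5AR1), -0.22 (CLU), -0.15 (FCN2), -0.09 (CFD), -0.03 (CD46), 0.00 (C1QBP) and 0.03 (C8G).

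**Figure D3:**
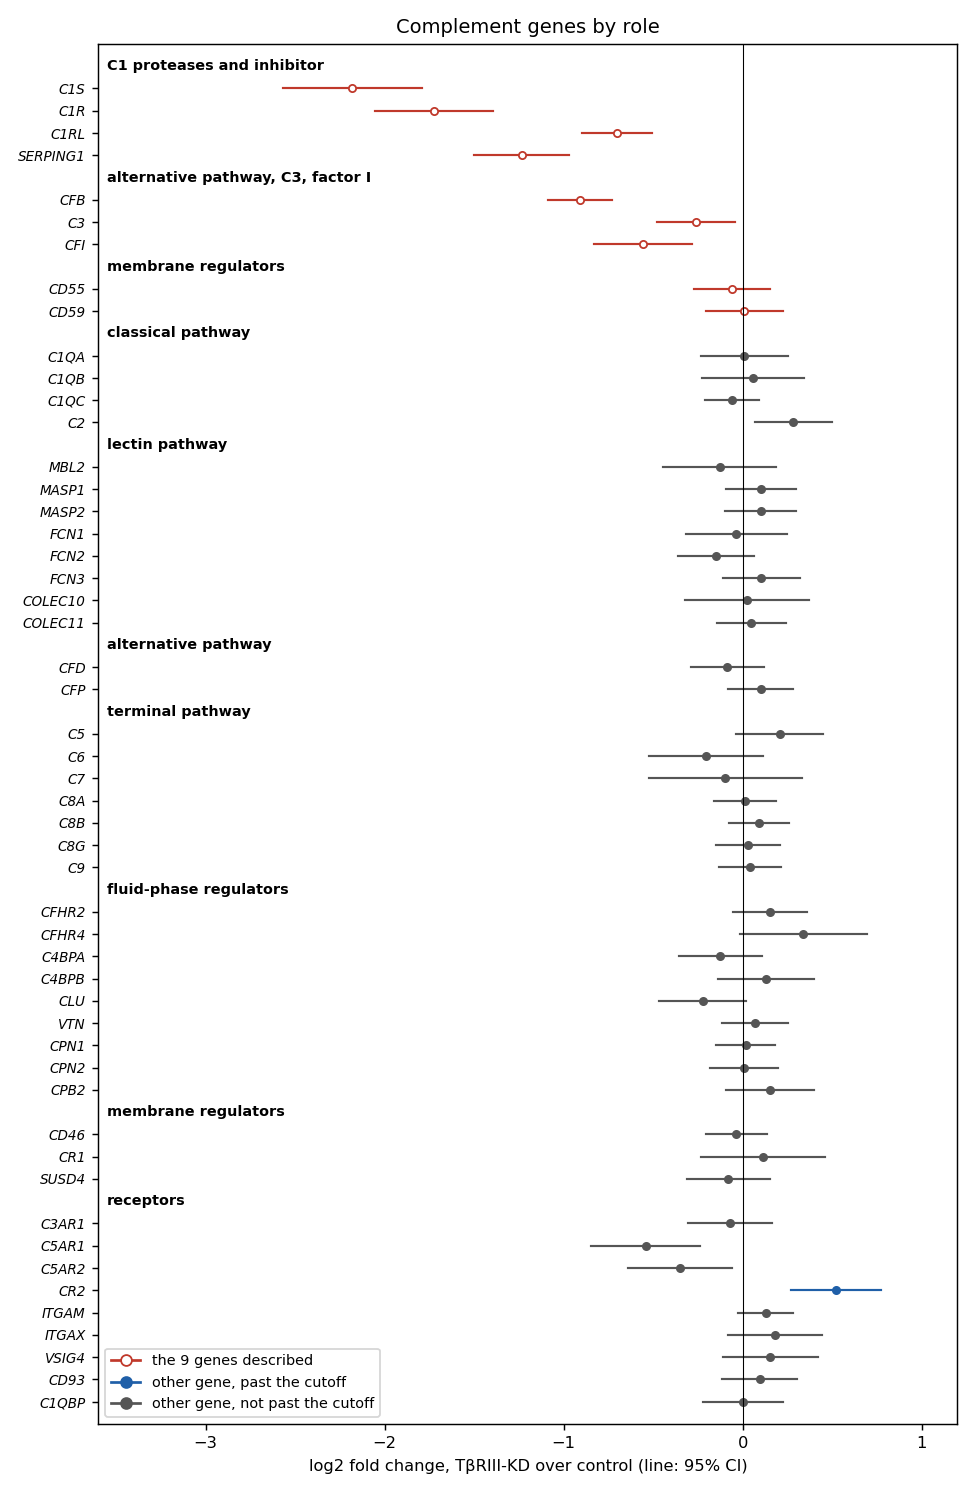
Difference of the group means, TβRIII-KD minus control (log2), for the 9 complement genes described (open red circles, not tested) and 42 further complement genes by role, blue where past the cutoff and grey where not, with lines for limma's 95% confidence interval (3 arrays in each group). C1S (-2.18), C1R (-1.73) and SERPING1 (-1.24) lie lowest, and CR2 (0.52) is the only further gene past the cutoff.

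The position of the genes was not used to choose them. C1S, C1R and C1RL follow one another on chromosome 12 in the RefSeq gene order, with no other measured gene between them. Of the 6 nearest measured genes, 3 on each side, 0 passed the cutoff. On the side of C1S, the log2 fold change of LPCAT3, a phospholipid acyltransferase, was -0.29 (SE 0.10, adjusted p = 0.191), that of EMG1, a ribosome biogenesis factor, -0.11 (SE 0.08, adjusted p = 0.586) and that of SCARNA12, a small Cajal body RNA, -0.01 (SE 0.15, adjusted p = 0.985). On the side of C1RL, the antisense gene C1RL-AS1 had -0.38 (SE 0.10, adjusted p = 0.0878), the retinol-binding protein RBP5 -0.12 (SE 0.08, adjusted p = 0.582) and the calsyntenin CLSTN3 -0.41 (SE 0.10, adjusted p = 0.0585). C1RL-AS1 and CLSTN3 were lower with no overlap between the groups, as 10.7% of all transcript clusters were. C1RL-AS1 overlaps C1RL in the annotation, and whether its probes also take up signal from C1RL was not tested.

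**Figure D4:**
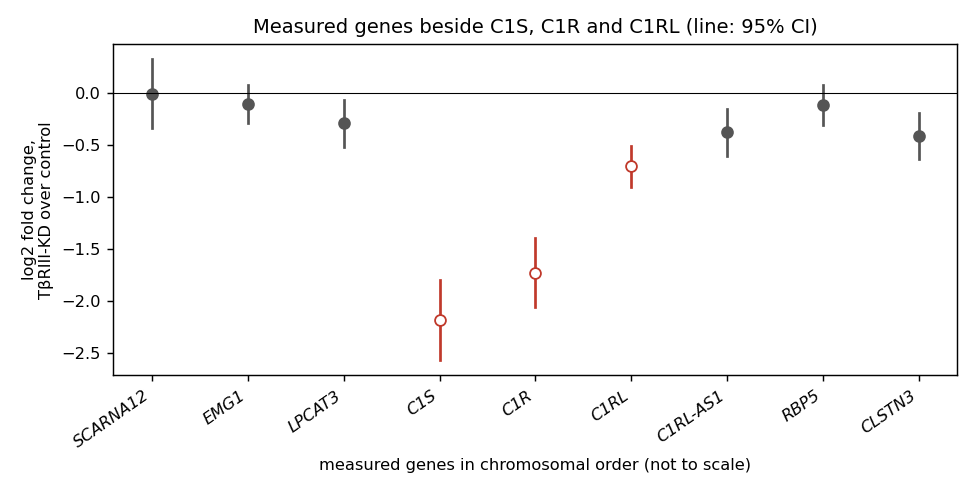
Difference of the group means, TβRIII-KD minus control (log2), for C1S, C1R and C1RL (open red circles, not tested) and the 3 nearest measured genes on each side (grey), in chromosomal order and not to scale, with lines for limma's 95% confidence interval (3 arrays in each group). C1S, C1R and C1RL lie at -2.18, -1.73 and -0.70, and the lowest neighbour, CLSTN3, at -0.41.

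Over all 9 genes, 42 neighbours were taken by the same rule, and 1 of them (2.38%) passed the cutoff, where 2.26% of all transcript clusters did. It was CR2, the neighbour of CD55 on chromosome 1 and also the gene past the cutoff among the further complement genes. C2, C4BPA, C4BPB, CR1 and CD46 stand in both lists as well, so the counts of the lists are not independent. The median log2 fold change of the neighbours was -0.02. An unadjusted p under 0.05 was reached by 12 of the 42 (28.6%), beside 15.2% of all transcript clusters. All TβRIII-KD arrays lay below all controls for 7 neighbours (16.7%) and above them for 6 (14.3%), beside 10.7% and 10.0% of all transcript clusters. Beside SERPING1 on chromosome 11, UBE2L6, a ubiquitin-like conjugating enzyme induced by interferon, had -0.39 (SE 0.12, adjusted p = 0.130), and beside C3 on chromosome 19, CD70, a ligand of the tumour necrosis factor family, had 0.38 (SE 0.09, adjusted p = 0.0549). Both were named after their values were seen.

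Promoter windows were read for the genes with an entry in the RefSeq table of GRCh38.p14, which were 6 of the 9, C1R, C1RL, CFB, CFI, CD55 and CD59. Of each entry the 250 bases before the start site are used, on the strand of the gene. Motifs of 4 kinds that are known from acute-phase and interferon responses were searched on both strands: the STAT motif TTCNNNGAA, the C/EBP motif TTNNGNAA, the core of the interferon-stimulated response element GAAANNGAA and the κB consensus. Capitals mark the matches. The lower genes with an entry are shown together with CD55, picked for display as the gene without a match. CD59, with a log2 fold change of 0.01, held matches too and is not shown. The windows shown are therefore no comparison of lower with unchanged genes.

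C1R, upstream start, chr12:7092446-7092695, minus strand: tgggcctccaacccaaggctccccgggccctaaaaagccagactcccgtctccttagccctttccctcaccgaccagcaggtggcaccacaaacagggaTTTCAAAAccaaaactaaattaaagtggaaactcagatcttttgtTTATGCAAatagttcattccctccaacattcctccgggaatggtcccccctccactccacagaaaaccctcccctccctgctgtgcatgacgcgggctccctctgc
C1R, downstream start, chr12:7091894-7092143, minus strand: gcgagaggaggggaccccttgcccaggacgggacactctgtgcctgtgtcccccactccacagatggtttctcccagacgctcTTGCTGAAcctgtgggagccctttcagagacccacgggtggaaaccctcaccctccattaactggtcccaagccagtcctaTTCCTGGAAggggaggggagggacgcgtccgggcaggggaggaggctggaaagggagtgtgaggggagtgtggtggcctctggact
C1RL, chr12:7109215-7109464, minus strand: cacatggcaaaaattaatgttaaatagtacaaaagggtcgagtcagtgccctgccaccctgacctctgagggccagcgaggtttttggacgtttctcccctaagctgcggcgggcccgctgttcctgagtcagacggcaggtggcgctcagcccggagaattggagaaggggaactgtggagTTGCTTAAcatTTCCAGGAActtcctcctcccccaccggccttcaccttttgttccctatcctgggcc
CFB, chr6:31945845-31946094, plus strand: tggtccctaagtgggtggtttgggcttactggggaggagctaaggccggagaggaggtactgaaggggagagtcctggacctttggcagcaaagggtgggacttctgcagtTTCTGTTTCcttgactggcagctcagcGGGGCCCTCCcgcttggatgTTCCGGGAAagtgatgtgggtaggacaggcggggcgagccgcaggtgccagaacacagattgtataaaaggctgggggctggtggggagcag
CFI, chr4:109802000-109802249, minus strand: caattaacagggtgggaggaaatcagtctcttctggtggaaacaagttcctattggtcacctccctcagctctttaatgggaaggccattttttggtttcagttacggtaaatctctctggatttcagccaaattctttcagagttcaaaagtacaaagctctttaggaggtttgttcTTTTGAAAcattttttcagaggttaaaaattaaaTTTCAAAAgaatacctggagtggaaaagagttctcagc
CD55, chr1:207321428-207321677, plus strand: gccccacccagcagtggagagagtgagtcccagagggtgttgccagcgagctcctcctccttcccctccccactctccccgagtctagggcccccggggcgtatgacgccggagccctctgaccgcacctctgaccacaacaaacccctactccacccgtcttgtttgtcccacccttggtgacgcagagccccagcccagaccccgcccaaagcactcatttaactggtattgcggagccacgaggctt

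The window of CFB held a STAT match (TTCCGGGAA) 92 to 84 bases before the start, a κB match 112 to 103 bases before it and an interferon response core, read on the other strand, 139 to 131 bases before it. C1RL held a STAT match (TTCCAGGAA) 57 to 49 bases before its start, and C1R one (TTCCTGGAA) 86 to 78 bases before its downstream start. C1R held a pair of C/EBP matches before its upstream start, and CFI a pair before its own, as did CD59 before start site 3 of its 4. CD55 held no match to any of these motifs.

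CD59, whose signal did not separate the groups, also held a STAT match (TTCTCAGAA), which lies in both windows of its upstream start sites. In all, a STAT match stood in 5 of the 10 windows, beside 6.57% of all 35116 promoter windows. By gene it stood in 4 of the 6, and the share over all genes was not computed. C/EBP matches stood in 5 of the 10 windows (33.2% of all windows), and the interferon response core and the κB consensus in 1 each (6.88% and 9.96% of all windows). These genes were chosen with their values known and windows of a gene can overlap, so the shares are a description. A match in letters is not evidence of binding.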

How the data were processed

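RNA of 6 samples of SUM159 cells grown in matrigel (3 control, 3 TβRIII-KD) was measured on Human Gene 1.0 ST arrays. The deposited values are log2 signals, which the authors computed in R 3.0.1 (package oligo, method RMA). The filter behind the 22148 transcript clusters is not given in the sources used here.

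TβRIII-KD was compared with control over all transcript clusters with limma 3.58.1 in R 4.3.3 (empirical Bayes, no trend, no block, two-sided, Benjamini-Hochberg adjustment). A cluster was called where its absolute log2 fold change was over 0.5 with an adjusted p under 0.05. Errors are limma's moderated SE. A gene was taken from clusters with 1 symbol (19129; 1735 had several and 1284 none), by the highest mean. The fit was tested on simulated data.

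The 9 genes and all lists, motifs and tests were chosen with earlier results of these data known. Named were the 9 genes, TGFBR3, listed complement genes past the cutoff, with the smallest p or at the ends of the list, the neighbours of the C1 genes, and the 5 genes nearest to C1S and to C1R. Genes named by role were chosen after their values were seen. A planned comparison of protein sequences was not run. Of the listed complement genes, C4A and C4B share their clusters with a further gene, and some others are not reported here. Replicate numbers were not used to pair the arrays in the main fit, and no source used here says whether they do. The number of arrays limits the precision.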

Additional observations from a re-analysis of the deposited data

How the results depend on the processing

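The fold changes of C1R, C1S, C1RL, SERPING1, CFB, C3 and CFI kept their sign under each alternative that gave a value, and the median of the 9 genes lay between -0.78 and -0.64. CD55 and CD59 changed sign without 1 array, as given above. The study's methods name limma for these arrays and an unpaired t-test for its data in general. That t-test gave 17 transcript clusters after adjustment and 0 of the 9 genes, 0 other complement genes and 0 neighbours. With its unadjusted p, it gave 2 other complement genes, as array weights did. At an absolute log2 fold change over 1, 140 transcript clusters, 3 of the 9 genes, 0 other complement genes and 0 neighbours passed. Only transcript clusters at or above the median signal (which leaves out CR2, SERPING1 and CFI and gave 4 of the 9 genes) and a repeat of quantile normalization (where the fold change of CR2 fell below the limit) each gave 0 other complement genes and 0 neighbours. Without any 1 array, 304 to 638 transcript clusters, 5 to 6 of the 9 genes, 0 to 1 other complement genes and 0 to 1 neighbours passed. The fold change of TGFBR3 was -0.89 to -0.67 without any 1 array, and by the unpaired t-test -0.79 with an adjusted p of 0.198. Its adjusted p lay between 0.00872 and 0.198 over the alternatives. That of CR2 lay between 0.0220 and 0.244, and that of C5AR1 between 0.0189 and 0.322.

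With the replicate number as a block, 616 transcript clusters, 6 of the 9 genes, 1 other complement gene and 1 neighbour passed, and the calls on TGFBR3, CR2 and C5AR1 did not change. Deviations of same-numbered arrays from their group means correlated at -0.06, 0.11 and 0.31 across transcript clusters. For arrays with different numbers the values lay between -0.387 (control 2 with TβRIII-KD 3) and 0.337 (control 2 with TβRIII-KD 1). Deviations from a mean of 3 arrays depend on each other, so these values cannot settle the pairing. The numbers were not taken to pair the arrays. Counting identical transcript clusters once, an alternative chosen after seeing the data, changed no count by over 1.5 times.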
